A study of Sus scrofa with 6 samples.

Results

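Myoblast fusion and cell contact genes were followed in porcine satellite cells (PSCs), stem cells of skeletal muscle whose progeny merge into multinucleated myotubes. The genes were chosen by symbol: MYMK, CDH15, CDH2, NCAM1, CDON, BOC, NEO1, CADM1, JAM2 and JAM3. Of these 10 symbols, 9 were matched through their Ensembl identifier to one of the 28266 rows of the deposited table, and CADM1 was not analysed here. The 6 libraries came from PSCs of the limb muscles of newborn male Yorkshire pigs, with 3 libraries harvested at 24 h (NC24h) and 3 at a later time (NC36h) of differentiation in horse serum medium. For the later group the labels state 48 h but the series title and the methods of the study state 36 h, so the interval between the groups is not certain. All 6 library titles carry the letter that the study uses for cells transfected with negative control (NC) siRNA, and no library of untransfected cells was analysed here. The replicates are numbered 4, 5 and 6 in either group. The labels do not say whether they came from separate pigs or cultures, so a p-value measures only the spread between these libraries. The cells were grown on Matrigel after preplating to remove fibroblasts, and the siRNA was given before the switch to differentiation medium. The extraction label names endometrium while the tissue label is skeletal muscle, and the epithelial and endometrial genes EPCAM, KRT8, KRT18, FOXA2, PGR and ESR1 all had a mean FPKM under 1. The other epithelial gene of that list in the table, CDH1, had 0.318 ± 0.183 FPKM at NC24h and 3.63 ± 1.12 at NC36h (SD, n = 3 each).

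Myoblasts recognise each other through adhesion proteins and then merge their membranes. Cadherins and immunoglobulin proteins such as NCAM1, CADM1 and the junctional adhesion molecules hold the cells together. CDON, BOC and NEO1 are surface receptors that bind cadherins, netrins, repulsive guidance molecules or hedgehog ligands and pass contact signals to the myogenic program. Myomaker (MYMK) is the muscle membrane protein that, with myomixer, carries out fusion itself.

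Expression was given as FPKM, the fragment count of each gene relative to gene length and library total. The fragments recovered from the table summed to between 16250222 and 21723087 per library. Changes were tested with limma on log2(FPKM + 1) over the 14060 genes whose FPKM averaged 1 or more, with Benjamini-Hochberg adjustment over all of them and a threshold of 0.05, and the pseudocount shrinks the changes of weakly expressed genes. The median log2 change of all tested genes was -0.16 on the deposited values and -0.01 after median-ratio scaling, so a small fall counts for less than an equally small rise. NC24h replicate 6 stood apart from replicates 4 and 5. The summed FPKM of 7 myogenic markers, led by ACTA1, was 2622 in it against 4780 and 4177 in replicates 4 and 5, and the summed FPKM of 9 cell cycle genes was 182 against 65.7 and 91.2. At NC36h these sums were between 10418 and 12215 and between 20.5 and 26.5. The muscle sum was mostly ACTA1, DES and MYH3, and these and CHRNA1 had their lowest NC24h value in replicate 6. MYOD1 (255, 306 and 386 FPKM in NC24h replicates 4, 5 and 6), MYF5 (66.9, 75.4 and 112) and MYF6 (3.10, 3.11 and 3.37) had their highest there. MYOD1 and MYF5 were not called, and MYF6 was called higher at NC36h. The desmin gene DES had an FPKM between 1452 and 1846 at NC24h and between 2875 and 3367 at NC36h. Of 9 cell cycle genes tested, 7 were lower at NC36h, or 77.8%, against 34.4% of all tested genes. Their median log2 change was -1.83, led by CCNB1 at -2.62, TOP2A at -2.53 and UBE2C at -2.49. Of 6 pericyte and smooth muscle markers 5 were in the table, and their summed FPKM was between 103 and 126 at NC24h and between 138 and 184 at NC36h, nearly all of it NOTCH3. NOTCH3 and PDGFRB were called higher, at 0.45 and 0.90, CSPG4 was called lower, at -0.64, and MYH11 and KCNJ8 were under 1 FPKM. The part of these markers in the results was not tested. Markers of endothelial cells, leukocytes and glia summed to at most 1.84, 5.72 and 0.203 FPKM in any library.

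MYMK was the most abundant of the 9 genes by mean FPKM in both groups, and 8 of the 9 genes differed between NC24h and NC36h. MYMK, CDH15, BOC, JAM2 and JAM3 were higher at NC36h, CDH2, CDON and NEO1 were lower, and NCAM1 did not pass the threshold. For comparison, 50.9% of all tested genes were called, 16.5% higher and 34.4% lower. In all 9 genes the FPKM ranges of the groups did not overlap, as in 63.6% of all tested genes. The median log2 change of the 9 genes was 0.42. MYMK and CDH2 were called with a log2 change of 1 or more in size, as were 8.36% of all tested genes. The number called was 8 with median-ratio scaling too, but with NCAM1 in and NEO1 out, and it was 5 without NC36h replicate 5, when the calls of MYMK, BOC and NEO1 were lost. Those settings called 6503 and 4889 of all 14060 tested genes.

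**Figure D1:**
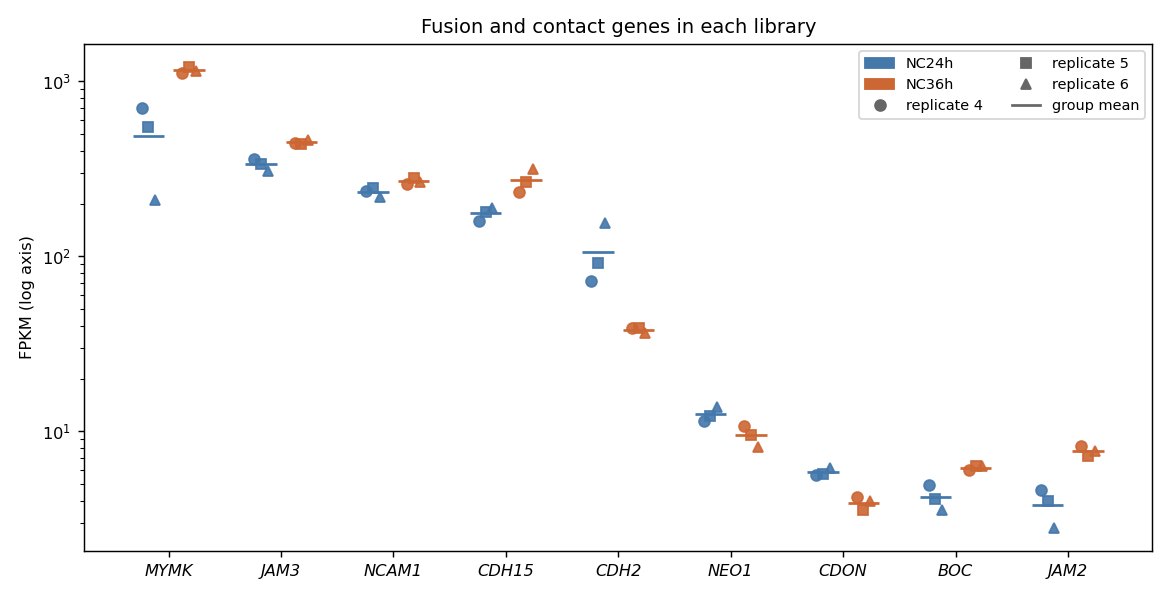
FPKM (vertical log axis) of the 9 genes in each of the 6 libraries, with the marker shape giving the replicate number and the horizontal lines the group means. The genes form an abundant set from MYMK to CDH2 and a lower set from NEO1 to JAM2. NC24h replicate 6 is the lowest NC24h library for MYMK at 210 and the highest for CDH2 at 154.

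MYMK (ENSSSCG00000022891) lies on chromosome 1 between 273101674 and 273111721 in the RefSeq annotation of Sscrofa11.1. All positions given are those of RefSeq, and whether the gene models that were counted coincide with them is not known. Its FPKM was 702, 549 and 210 at NC24h (replicates 4, 5 and 6, the order used throughout) and 1110, 1205 and 1144 at NC36h. Every NC36h library was higher than every NC24h library, and the NC36h libraries lay close together whereas NC24h replicate 6 was far below the others. The coefficient of variation was 51.7% at NC24h and 4.19% at NC36h. The mean FPKM at NC36h was 2.37 times that at NC24h, a log2 change of 1.41 (standard error, SE, 0.41, adjusted p = 0.0273 by limma). Without NC24h replicate 6 the log2 change was 0.89 with a limma adjusted p of 0.00156. The call was lost without any 1 of the NC36h libraries, at an adjusted p between 0.0687 and 0.0797. The values rested on between 2301 and 17579 fragments per library over a counted length of 666 bases. Across the NC24h libraries the sum of the muscle markers, mostly ACTA1, DES and MYH3, fell in the same order as MYMK. MYOD1, MYF5, MYF6 and the sum of the cell cycle genes ran the opposite way. The part of all these genes in this result was not tested. In these bulk libraries, fewer cells that express a gene and less RNA of it per cell cannot be told apart.

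The 5 genes with a symbol whose profile over the 6 libraries lay closest to that of MYMK were KCNT1, TMEM40, CSRP3, MYO18B and KLHL30. The root mean square difference between the log2(FPKM + 1) profiles, each centred on its own mean, was 0.06 for KCNT1, 0.10 for TMEM40, 0.12 for CSRP3 and MYO18B and 0.13 for KLHL30. The distance of KCNT1 depends on the pseudocount, since its FPKM was only 4.28, 3.03 and 0.589 in NC24h replicates 4, 5 and 6. With a pseudocount of 0.01 its log2 change was 1.91 and that of MYMK 1.41, against 1.39 and 1.41 with a pseudocount of 1. KCNT1 encodes a potassium channel, CSRP3 the muscle LIM protein and MYO18B an unconventional myosin of muscle. CSRP3 had an FPKM of 352, 289 and 134 in NC24h replicates 4, 5 and 6, and of 604, 681 and 686 in the same replicates of NC36h. Since the 5 genes were picked for their likeness to MYMK in these same libraries, what they share with it is not separate support. Their lowest library was NC24h replicate 6, as for MYMK. Without it the log2 changes of KCNT1, TMEM40, MYO18B and KLHL30 were 0.87, 0.94, 0.86 and 0.66, against 1.39, 1.48, 1.40 and 1.17 with it. Among the other genes studied, JAM2 lay closest to MYMK, at 0.46, and CDH2 farthest, at 1.64.

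**Figure D2:**
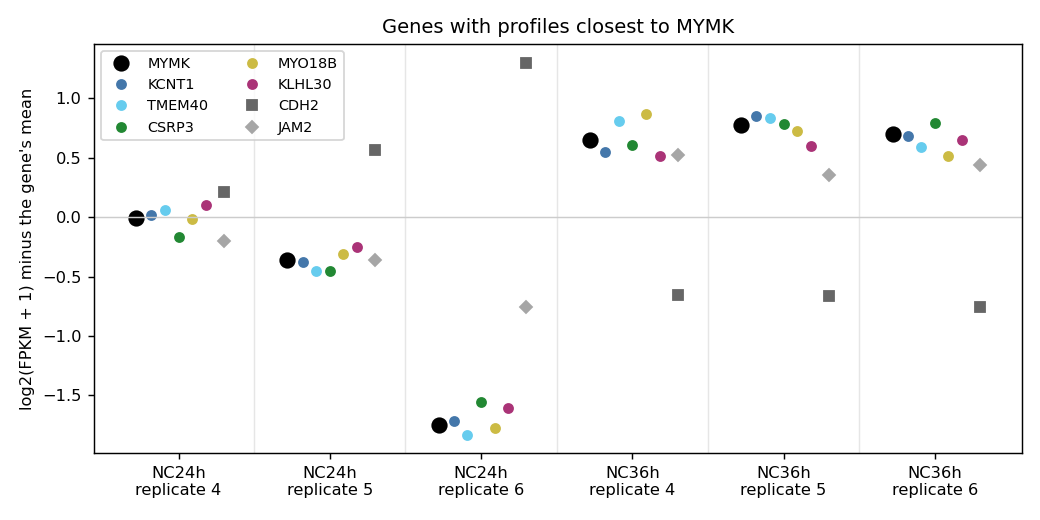
log2(FPKM + 1) minus the mean of the gene (vertical axis) in each of the 6 libraries, for MYMK, the 5 genes with the closest profiles, and CDH2 and JAM2. The 5 genes, chosen for this likeness in these same libraries, follow MYMK with distances from 0.06 to 0.13, and CDH2 runs the opposite way.

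The cadherins CDH15 and CDH2 changed in opposite directions. CDH15, or M-cadherin, is the classical cadherin of satellite cells and myoblasts, and CDH2, or N-cadherin, is shared with nerve, heart and mesenchymal cells. CDH15 (ENSSSCG00000002642, chromosome 6, 636350 to 652260) had an FPKM of 160, 179 and 188 in NC24h replicates 4, 5 and 6 and of 232, 265 and 315 at NC36h. All NC36h libraries exceeded all NC24h libraries, and NC24h replicate 6 was the highest of its group, unlike for MYMK. The mean rose by a factor of 1.54, with a log2 change of 0.61 (SE 0.12, adjusted p = 0.00693 by limma), and the call held in all 15 alternatives, with changes from 0.50 to 0.79. CDH2 (ENSSSCG00000003722, chromosome 6, 112396713 to 112629073) had an FPKM of 72.1, 91.9 and 154 at NC24h and of 39.1, 38.7 and 36.4 at NC36h. The NC36h libraries were nearly equal and all below the lowest NC24h library, while NC24h replicate 6 was 1.88 times the mean of replicates 4 and 5. The mean of NC36h was 0.359 of that of NC24h, a log2 change of -1.38 (SE 0.25, adjusted p = 0.00506 by limma). It was -1.08 without NC24h replicate 6, and the call held in all 15 alternatives. The summed FPKM of the cell cycle genes was in the same order as CDH2 at NC24h, at 65.7, 91.2 and 182, and its part in this result was not tested. CDH2 was counted over only 784 bases, against 2306 for CDH15.

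Fibroblast markers moved in part with CDH2. Of the 10 fibroblast genes listed, 7 were in the table, and their summed FPKM was between 932 and 1003 at NC24h and between 827 and 1033 at NC36h. Nearly all of it was COL1A2 and COL3A1, which moved in opposite directions. COL1A2, DCN and LUM were called lower, at -0.62, -1.48 and -1.19. COL3A1 and POSTN were called higher, at 0.87 and 0.47, and FAP was not called. DCN, a matrix proteoglycan, had an FPKM of 18.8 ± 0.256 at NC24h and 6.12 ± 0.923 at NC36h (SD, n = 3 each), whereas the collagen gene COL3A1 had 241 ± 36.5 and 443 ± 74.4. PDGFRA, the receptor that marks fibroblast progenitors, had at most 0.680 in any library. Their part in the fall of CDH2 was not tested.

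The ratio of CDH15 to CDH2 within a library does not depend on how libraries are scaled. It was 2.23, 1.94 and 1.22 at NC24h and 5.93, 6.85 and 8.66 at NC36h. The groups did not overlap, which follows from CDH15 rising and CDH2 falling without overlap. NC24h replicate 6 had the lowest ratio of all. The mean log2 ratio was 0.80 ± 0.46 at NC24h and 2.82 ± 0.28 at NC36h (SD, n = 3 each), a difference of 2.02 (two-sided exact permutation test, p = 0.10, the smallest p that 3 against 3 libraries allow). That p was fixed by the separate ranges of the 2 genes, so it adds no support to their own results. Among the FPKM of CDH15, CDH2, CDH4, CDH11 and CDH13 together, the share of CDH15 was between 35.4% and 41.2% at NC24h and between 55.2% and 63.8% at NC36h. The share of CDH2 was between 18.3% and 29.0% and then between 7.36% and 9.31%. CDH13, named after its values were seen, a cadherin anchored to the membrane by lipid, had 149 ± 11.8 FPKM at NC24h and 129 ± 4.68 at NC36h (SD, n = 3 each), and its limma adjusted p was 0.0545.

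**Figure D3:**
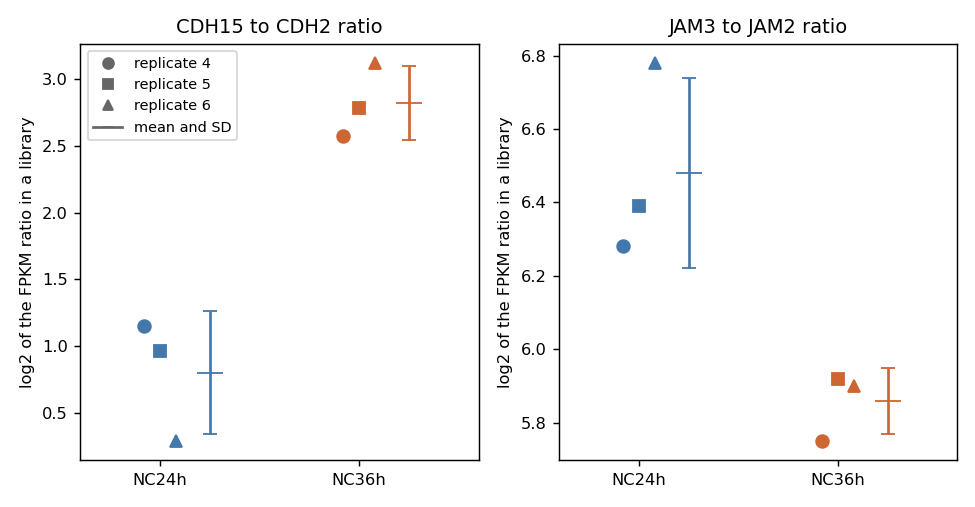
log2 of the ratio of 2 FPKM values in the same library (vertical axis), for CDH15 over CDH2 and for JAM3 over JAM2, with each library as a point and the group mean and SD beside it. The cadherin ratio is higher in every NC36h library and the JAM ratio is lower in every NC36h library.

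Among the immunoglobulin proteins, NCAM1 and JAM3 were abundant and JAM2 was low. NCAM1 (ENSSSCG00000015045, chromosome 9, 40628602 to 40960605), the neural cell adhesion molecule that also coats differentiating myoblasts, had an FPKM of 236, 247 and 218 in NC24h replicates 4, 5 and 6 and of 259, 280 and 264 at NC36h. The groups did not overlap, but the gap between them was only that from 247 to 259. The log2 change of 0.20 (standard error 0.07) had a limma adjusted p of 0.0547. With median-ratio scaling the change was 0.37 and the limma adjusted p 0.0112, the only 1 of 15 alternatives in which NCAM1 was called. With quantile normalization the change was 0.16 (limma adjusted p = 0.0967). JAM3 (ENSSSCG00000015256, chromosome 9, 60629245 to 60738979), a junctional adhesion molecule that pairs with JAM2, had 358, 337 and 308 at NC24h and 443, 437 and 460 at NC36h. Each NC36h library was above each NC24h library, and the spread within the groups was small. The mean rose by a factor of 1.34, with a log2 change of 0.42 (SE 0.07, adjusted p = 0.00467 by limma).

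JAM2 (ENSSSCG00000023028, chromosome 13, 189199789 to 189275843), the partner of JAM3, had an FPKM of 4.61, 4.02 and 2.81 in NC24h replicates 4, 5 and 6 and of 8.23, 7.23 and 7.70 at NC36h, from 54 to 200 fragments per library. It was lowest in NC24h replicate 6 and its mean at NC36h was 2.02 times that at NC24h. The log2 change was 0.87 (SE 0.15, adjusted p = 0.00419 by limma), and the calls of both JAM genes held in all 15 alternatives. The ratio of JAM3 to JAM2 was 77.7, 83.8 and 110 in NC24h replicates 4, 5 and 6 and 53.8, 60.5 and 59.7 at NC36h. The mean log2 ratio fell by 0.63, from 6.48 ± 0.26 to 5.86 ± 0.09 (SD, n = 3 each, two-sided exact permutation test, p = 0.10, the smallest possible). F11R, the third gene of this family, which is best known from epithelial and blood cells, had 8.45 ± 2.96 FPKM at NC24h and 2.66 ± 0.247 at NC36h (SD, n = 3 each), with a log2 change of -1.33 (limma adjusted p = 0.00323). JAM3 made up between 95.5% and 97.8% of the summed FPKM of the 3 genes in every library.

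The receptors CDON, BOC and NEO1 had a lower FPKM than MYMK, JAM3, NCAM1, CDH15 and CDH2 and did not move together. Among all tested genes the mean of NEO1 lay mid-range, at percentile 55.0 at NC24h and 51.1 at NC36h. CDON (ENSSSCG00000022504, chromosome 9, 53079543 to 53178881), a coreceptor that binds cadherins and hedgehog ligands, had an FPKM of 5.66, 5.69 and 6.20 in NC24h replicates 4, 5 and 6 and of 4.20, 3.54 and 4.02 at NC36h. The lowest NC24h library was above the highest NC36h library, and the log2 change was -0.48 (SE 0.09, adjusted p = 0.00597 by limma). BOC (ENSSSCG00000025826, chromosome 13, 146625218 to 146703165), the close relative of CDON, had 4.93, 4.13 and 3.55 at NC24h and 5.98, 6.31 and 6.32 at NC36h. BOC thus went from below CDON in every NC24h library to above it in every NC36h library, with a log2 change of 0.48 (SE 0.11, adjusted p = 0.0131 by limma). NEO1 (ENSSSCG00000001921, chromosome 7, 60064984 to 60299892), or neogenin, the receptor for netrins and repulsive guidance molecules, had 11.4, 12.2 and 13.8 at NC24h and 10.7, 9.58 and 8.19 at NC36h. The groups came close, at 11.4 and 10.7, and the log2 change of -0.36 (SE 0.12, adjusted p = 0.0364 by limma) was -0.20 with an adjusted p of 0.163 after median-ratio scaling. Its call was also lost without NC24h replicate 5 or 6 or NC36h replicate 5 or 6 (adjusted p between 0.0736 and 0.0941). The call of CDON held in all 14 alternatives in which it was tested, and that of BOC was lost without NC36h replicate 5 (adjusted p = 0.0525).

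**Figure D4:**
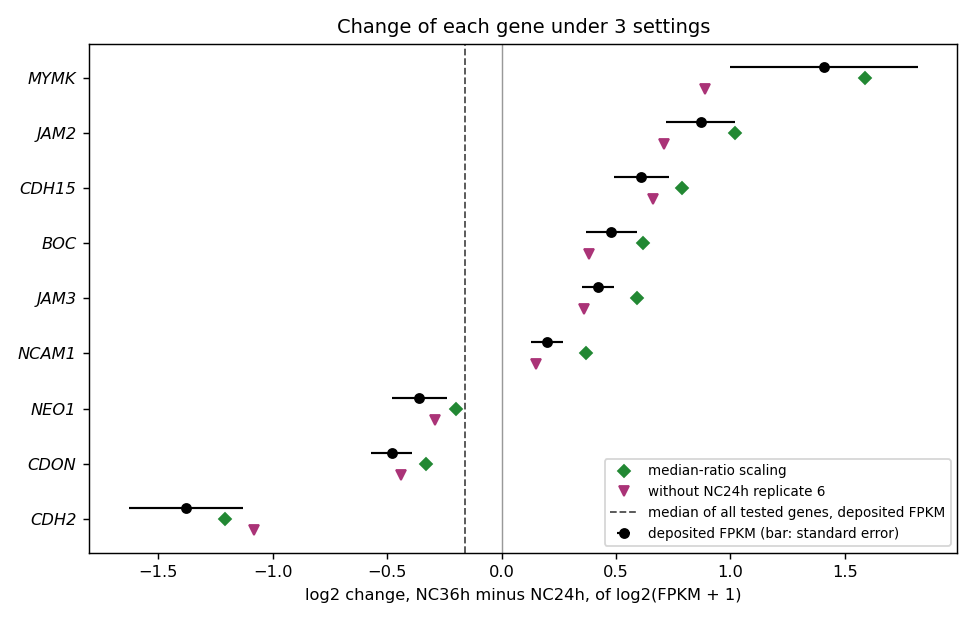
Change in log2(FPKM + 1) from NC24h to NC36h (horizontal axis) of the 9 genes on the deposited FPKM values with its standard error, after median-ratio scaling, and without NC24h replicate 6, with the median of all tested genes at -0.16 as a dashed line. No gene changes sign, and MYMK and CDH2 are the genes that shrink most without that library, from 1.41 to 0.89 and from -1.38 to -1.08.

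Ordered by mean FPKM, which is per length, the NC24h group ran MYMK, JAM3, NCAM1, CDH15, CDH2, NEO1, CDON, BOC and JAM2. The ranges of MYMK and JAM3 overlapped there, from 210 to 702 and from 308 to 358, as did those of BOC and JAM2, and no other neighbours did. In NC24h replicate 6 MYMK, at 210, was below both JAM3, at 308, and NCAM1, at 218. At NC36h the order was MYMK, JAM3, CDH15, NCAM1, CDH2, NEO1, JAM2, BOC and CDON, with overlaps between CDH15 and NCAM1 and between NEO1 and JAM2. The mean of CDH2 went from the 93.8th to the 82.5th percentile of the tested genes, and that of JAM2 from the 24.7th to the 45.9th. Profiles over the 6 libraries were closest between BOC and JAM3, at a root mean square difference of 0.06, and between CDON and NEO1 and between NCAM1 and JAM3, both at 0.13. These distances depend on the pseudocount of 1, which shrinks the weakly expressed genes. With a pseudocount of 0.01 the log2 changes were 0.57 for BOC and 0.42 for JAM3, and -0.58 for CDON and -0.40 for NEO1. Within NC24h, replicate 6 was the lowest library for MYMK, NCAM1, BOC, JAM2 and JAM3 and the highest for CDH15, CDH2, CDON and NEO1. The range of log2(FPKM + 1) within NC24h was 1.74 for MYMK and 1.08 for CDH2, against a median of 0.26 over all tested genes.

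Of 38 listed genes of the fusion machinery, 27 were in the table and 22 were tested, of which 3 were higher, 8 were lower and 11 did not pass. Under the filter, DOCK5 and ARHGAP26 were lower at NC36h and MRC1, on at most 2 fragments per library, was higher, each without overlap. Without the filter 3 of the 27 genes were called higher and 10 lower, against 2440 and 4840 of all 21614 genes then tested. The share called, 50.0%, was near the 50.9% of all tested genes. The median log2 change of the list, -0.15, was close to that of all genes. Myomixer was not analysed here. TMEM182, a muscle membrane protein known to restrain fusion, was higher, with an FPKM of 21.7, 14.1 and 3.58 in NC24h replicates 4, 5 and 6 and of 79.1, 66.2 and 49.1 at NC36h. Its log2 change was 2.48 (SE 0.56, adjusted p = 0.0106 by limma), and NC24h replicate 6 was again the lowest library. The ferlins, calcium sensors of membrane fusion and repair, moved in opposite directions. DYSF, or dysferlin, went from 1.62 ± 0.592 to 10.4 ± 3.96 FPKM (SD, n = 3 each), and MYOF, or myoferlin, went from 50.3 ± 12.0 to 16.3 ± 1.54 (SD, n = 3 each). Their log2 changes were 2.08 and -1.55 (limma adjusted p = 0.00223 and 0.00114). Among the lower genes were the phosphatidylserine-binding annexin ANXA5, at -1.21, and the tetraspanin CD9, at -1.19. After median-ratio scaling 7 of the 22 genes were higher and 8 lower, against 3367 higher and 3136 lower of all 14060 tested genes.

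Of the main cytoplasmic partners of the cadherins, only CTNND1 passed the test on the deposited values. CTNNB1, or beta-catenin, had 219 ± 22.5 FPKM at NC24h and 209 ± 2.66 at NC36h (SD, n = 3 each), and CTNNA1, or alpha-catenin, had 231 ± 17.8 and 241 ± 2.01. Neither passed, with log2 changes of -0.06 and 0.07 (limma adjusted p = 0.591 and 0.477), and that of CTNNB1 was 0.12 after median-ratio scaling. CTNND1, or p120-catenin, had 63.8 ± 2.70 and 51.6 ± 2.89 FPKM (SD, n = 3 each) and passed at -0.30 (limma adjusted p = 0.0101), but not after median-ratio scaling (-0.13, adjusted p = 0.128). Of 15 listed partners and other cadherins, 12 were tested, with 3 higher and 4 lower. The share called was 58.3%, against 50.9% of all tested genes. CDH4, or R-cadherin, was higher, with 1.52, 1.57 and 0.608 FPKM in NC24h replicates 4, 5 and 6 and 3.77, 4.52 and 4.45 at NC36h, a log2 change of 1.26 (limma adjusted p = 0.00312). The actin linker VCL, or vinculin, and the catenin-like ARVCF were higher at 0.36 and 0.39, the latter not without NC24h replicate 5 (adjusted p = 0.0588). CDH11, the junction protein TJP1 and the plakophilin PKP4 were lower at -0.51, -0.59 and -0.78.

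For CDON, BOC and NEO1, 20 ligands and signalling partners were listed and 11 tested, of which 2 were higher and 4 lower. The share called was 54.5%, near the 50.9% of all tested genes. After median-ratio scaling 3 were higher and 0 lower by limma (1 lower at an unadjusted p under 0.05), and with quantile normalization 2 were higher and 1 lower. Among all 14060 tested genes these settings called 3367 and 3039 higher and 3136 and 3542 lower, in that order. PTCH1, the hedgehog receptor, rose from 2.70, 2.38 and 1.65 FPKM in NC24h replicates 4, 5 and 6 to 5.87, 6.09 and 5.50 at NC36h, a log2 change of 1.08 (SE 0.14, adjusted p = 0.00175 by limma). The hedgehog ligand SHH was listed at 0 in all 6 libraries, DHH reached at most 0.0709 FPKM and the pathway target GLI1 at most 0.102. RGMB, a ligand of NEO1, rose from 65.8 ± 8.61 to 101 ± 10.3 FPKM (SD, n = 3 each), a log2 change of 0.62 (limma adjusted p = 0.00579). NTN1, the netrin that NEO1 and CDON bind, had 6.02, 6.73 and 11.4 FPKM at NC24h and 8.08, 7.63 and 9.23 at NC36h (limma adjusted p = 0.761), and the groups overlapped. Without NC24h replicate 6 its log2 change was 0.34 and passed (limma adjusted p = 0.0329). The signalling proteins CDC42 and BNIP2 and the netrin NTN4 were lower at -0.31, -0.37 and -0.34, and none of them passed after median-ratio scaling. The call of BNIP2 was also lost without NC24h replicate 4, NC36h replicate 5 or NC36h replicate 6 (adjusted p between 0.0607 and 0.0737).

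Of 22 listed immunoglobulin contact proteins and their partners, 13 were tested, with 1 higher and 7 lower and a median log2 change of -0.54. The share called was 61.5%, against 50.9% of all tested genes. The genes with the largest falls were ALCAM, CADM3, a relative of CADM1, and F11R. ALCAM, or activated leukocyte cell adhesion molecule, had 6.24, 6.98 and 13.0 FPKM in NC24h replicates 4, 5 and 6 and 2.16, 2.54 and 3.24 at NC36h, a log2 change of -1.36 (limma adjusted p = 0.00568). CADM3 had 1.24, 1.81 and 4.17 and then 0.196, 0.239 and 0.355 FPKM, from 7 to 118 fragments per library, a log2 change of -1.34 (limma adjusted p = 0.0107). It reached the filter on mean FPKM only through NC24h. The ratio of means was 0.109, and the log2 change was -3.00 with a pseudocount of 0.01, -2.63 with 0.1 and -2.99 with voom on the recovered fragments. ITGA4, the integrin subunit that binds VCAM1 in fusing myoblasts, was the 1 tested gene called higher. It went from 0.715 ± 0.182 to 1.69 ± 0.247 FPKM (SD, n = 3 each), a log2 change of 0.65 (limma adjusted p = 0.00972). ITGA4 reached the filter of a mean FPKM of 1 only through NC36h. Of the genes under the filter, ITGA9 and CADM2 were higher at NC36h and KIRREL3 was lower, each without overlap, and none of them was tested. VCAM1 itself had 0.977 ± 0.452 and 1.21 ± 0.241 FPKM (SD, n = 3 each) and did not pass (limma adjusted p = 0.474). ST8SIA2 and ST8SIA4, which add polysialic acid to NCAM1, were not analysed here.

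Integrins, most of which bind the extracellular matrix, were counted for comparison. Of 12 tested, 1 was higher and 5 were lower, with a median log2 change of -0.21. The integrin subunits ITGA4 and ITGA9 were counted with the immunoglobulin partners and not here. ITGA4 was called higher, at 0.65, and ITGA9 was higher without overlap but not tested. The share called, 50.0%, was near the 50.9% of all tested genes, of which 16.5% were called higher and 34.4% lower. ITGB1, the beta subunit shared by most muscle integrins, had 381 ± 38.3 FPKM at NC24h and 279 ± 4.11 at NC36h (SD, n = 3 each), a log2 change of -0.45 (limma adjusted p = 0.00540). The alpha subunits ITGAV, ITGA8 and ITGA3 were lower at -1.35, -1.26 and -1.26, and ITGA11 was higher at 0.40. That of ITGA3 was -0.82 without NC24h replicate 6, and ITGA11 did not pass without NC36h replicate 5 (adjusted p = 0.0514). The call of ITGA3 was lost without NC24h replicate 5, NC36h replicate 4 or NC36h replicate 5 (adjusted p between 0.0622 and 0.0903) and without the filter on low values (0.0513), and without NC36h replicate 5 only 3 of the 12 integrins were called. Any difference in direction between the integrins and the fusion and contact genes was not tested.

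**Figure D5:**
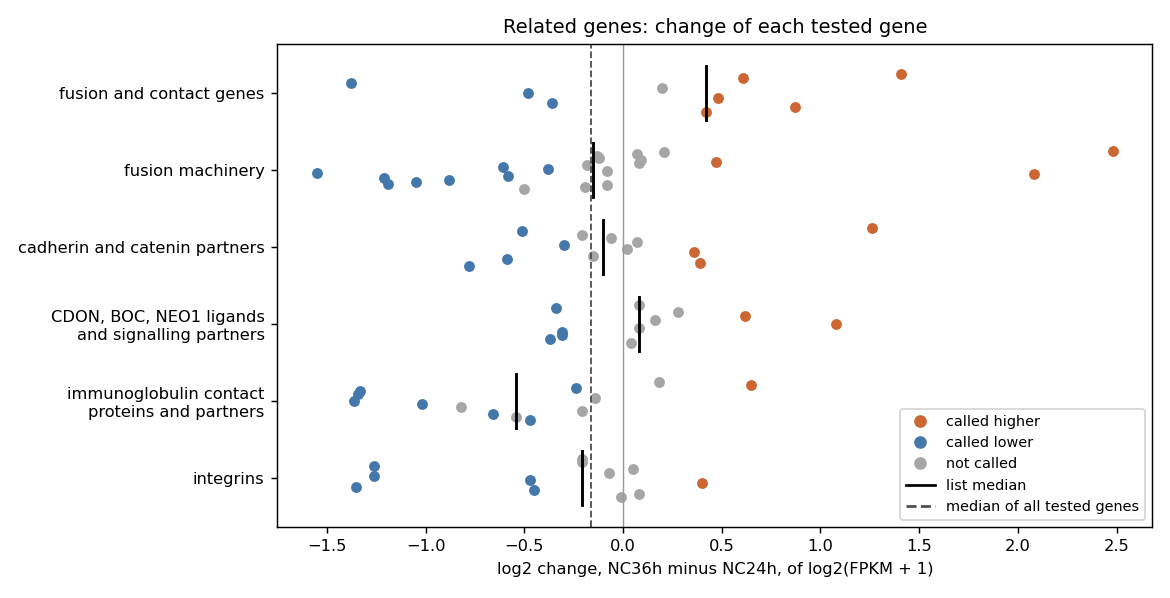
Change in log2(FPKM + 1) from NC24h to NC36h (horizontal axis) of each tested gene of the fusion and contact genes and of 5 related lists, coloured by the limma call, with the list medians as black lines. The median of the fusion and contact genes lies at 0.42, and those of the other lists lie between -0.54 and 0.08.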

How the data were processed

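Libraries were paired-end Illumina RNA-seq. The authors deposited FPKM values per gene on Sscrofa11.1. The methods of the study name HISAT2, StringTie and HTSeq, whereas the submitters' processing notes name TopHat2, Cufflinks and HTSeq. Strandedness and the treatment of multi-mapped fragments are not given in the sources used here. Ensembl identifiers in the table end at 31070, and 3819 of 15623 identifiers in the current name table lie above that number, so the counted models come from an older set.

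Genes whose FPKM averaged 1 or more were tested as log2(FPKM + 1), pseudocount 1, with limma 3.58.1 (eBayes with trend, R 4.3.3), two-sided, with Benjamini-Hochberg adjustment over 14060 genes. Ratios were tested with exact permutation tests. Whole fragments were recovered from the FPKM steps: all values of 19543 of 19543 genes above 0 in at least 3 libraries came out whole within 0.01. One fragment of a gene of 1 kb was worth between 0.0457 and 0.061 FPKM. Scripts were tested on simulated data. Alternatives were pseudocounts of 0.1 and 0.01, other filters, scaling by median ratios or quantiles, no trend, a replicate block, voom on the recovered fragments, and leaving out each library.

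The genes and lists were chosen with earlier results of these data known. Named genes were the members, the 3 largest called rises and falls without overlap in each of 6 lists, 12 direct partners and the 5 profiles closest to MYMK. Other genes named come from marker lists or were named after their values were seen. Promoter motifs were not searched, and libraries with H19 siRNA were not analysed here. One gene that the rule names is not reported here.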

Additional observations from a re-analysis of the deposited data

How the results depend on the processing

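Of the values for single genes, 657 kept direction and call under the alternatives run, 50 lost their call, 2 gained one and 5 changed sign. The sign changes were in genes that did not pass on the deposited values: CTNNB1 (0.12 after scaling by median ratios, 0.03 without NC24h replicate 6, from -0.10 to 0.03 over all left-out libraries), NTN1 (-0.08 without NC24h replicate 4, -0.01 without NC24h replicate 5, from -0.08 to 0.34, passing at 0.34 without NC24h replicate 6) and VCAM1 (-0.01 without NC24h replicate 6, from -0.01 to 0.33). The partners of CDON, BOC and NEO1 went from 6 called to 3 after scaling by median ratios and to 3 after quantile normalization. Leaving out 1 library gave 5 to 8 of the fusion and contact genes, 3 to 6 integrins and 4889 to 7336 genes in all, and the low values of all 3 counts came without NC36h replicate 5. The cause was not tested. Over all genes, higher genes made up 32.4% of calls as deposited, 51.8% after median-ratio scaling and 46.2% after quantile normalization. CDH15, CDH2, CDON, JAM2 and JAM3 kept their calls in every alternative in which they were tested, and NEO1 lost its call in 8 of 15. With the replicate number as a block, 7034 genes and 7 of the fusion and contact genes were called, with NEO1 lost (adjusted p = 0.0725). Same-numbered libraries had correlations of deviations of 0.15, -0.02 and 0.18 for numbers 4, 5 and 6, and NC24h replicates 4 and 6 correlated best with their own number but replicate 5 with NC36h replicate 4. Since the labels give no shared source and not every correlation was over 0.1, same-numbered libraries were not treated as pairs. The exact tests of both ratios could not fall below 0.10, or 0.25 over pairs.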

Other observations

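CDH1, or E-cadherin, the classical cadherin of epithelia, had an FPKM of 0.417, 0.430 and 0.107 in NC24h replicates 4, 5 and 6 and of 4.36, 4.18 and 2.35 at NC36h, and was picked out after its values were seen. Its log2 change was 1.79 (SE 0.22, adjusted p = 0.00155 by limma), on 2 to 104 fragments per library. CDH1 reached the filter on mean FPKM only through NC36h. The epithelial genes KRT8, at 0 in all 6 libraries, EPCAM, at most 0.0370, and KRT18, at most 0.173, stayed near 0 in both groups.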
